A study of Mus musculus with 6 samples.

Results

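The genes examined are those of the unfolded protein response and the integrated stress response in E0771 cells, a mouse breast carcinoma line of C57BL/6 origin, after knockdown of lamin A/C. A list of 49 genes was matched by exact symbol to the deposited count table of 10520 genes, which held 46 of them. The 3 others, Manf, Derl3 and Stc2, were not analysed here, and 3 of the 46, Ern1, Cebpg and Hyou1, had too few counts to be tested, which left 43. The list was divided by role into 14 stress sensors and regulatory factors, 14 genes of protein folding in the endoplasmic reticulum (ER), 8 genes of ER-associated degradation, and 13 stress and amino acid genes.

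Proteins of the secretory pathway fold in the ER, and unfolded proteins there activate the sensors PERK (Eif2ak3), IRE1 (Ern1) and ATF6. IRE1 splices the mRNA of Xbp1, and spliced XBP1 and cleaved ATF6 induce chaperones and degradation factors. PERK, like the amino acid sensor GCN2 (Eif2ak4), phosphorylates the translation initiation factor eIF2α, which slows protein synthesis in general but favours translation of Atf4, whose protein induces Ddit3 (CHOP), Trib3, amino acid transporters and biosynthetic enzymes, and, with CHOP, Ppp1r15a (GADD34), the subunit that directs a phosphatase back to eIF2α. Much of this signalling acts on proteins and on splicing, which 3' UMI counts do not measure.

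The study asked how low lamin A/C affects the nucleus, migration, growth and metastasis of tumor cells. The cells carried either the empty pLKO.5-puro lentiviral vector (shControl) or a lentiviral vector with a single hairpin against Lmna (shLmna, titled shRNA4 in the labels). Both populations were selected with puromycin and expanded in bulk. RNA of 3 shControl and 3 shLmna samples was sequenced by MARS-seq, which counts 3' ends of polyadenylated RNA, each molecule once by its unique molecular identifier (UMI). The labels do not say whether the 3 samples of a group came from separate cultures, so p-values measure the spread between these samples, which may be technical.

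The libraries held from 1846208 to 3242051 UMIs. Lmna stood at 810.3, 874 and 936 CPM in shControl (UMI counts scaled to a common library total with the TMM factors of edgeR) and at 388, 376 and 379 CPM in shLmna, a Log2FoldChange of -1.20 (SE 0.13, adjusted p = 3.55e-05 from the quasi-likelihood test of edgeR, adjusted over all tested genes by Benjamini-Hochberg here and throughout). Of the 8 epithelial markers chosen for E0771 the table held 4; Krt8 had 516 to 814 UMIs in every library, while Krt18, Krt7 and Epcam had at most 46, and the 4 together came to 266 to 323 CPM. Of 7 melanocyte markers, the type of the B16F10 melanoma line also used in the study, the table held 6, and their sum was 754 CPM in shControl replicate 3 and 605 CPM in shLmna replicate 2 but 0.750 to 5.88 CPM in the other 4 libraries. Pmel, a melanosome protein, had 450 and 499 UMIs in those 2 libraries and 1 to 8 elsewhere, and Sox10 had 36 and 40 against 0. Of 6 leukocyte and 6 endothelial markers the table held 2 each. The leukocyte genes present, Cd68 and Laptm5, summed to 276 to 377 CPM, nearly all from Laptm5 (504 to 1012 UMIs, against 10 to 34 for Cd68). The endothelial genes present, Pecam1 and Egfl7, summed to 42.4 to 56.4 CPM. Neither sum had such a split. Since 1 library of each group carried the melanocyte transcripts, calls of named genes that were lost or gained without those libraries are given with and without them.

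Sequences before the transcription start show which members carry, in these letters, the elements through which the pathway is known to act. Promoters of 250 bases from RefSeq (GRCm38.p6) were found for 41 of the 46 genes and searched on both strands for the C/EBP-ATF response element TGATGNAA, bound by ATF4 and CHOP dimers with C/EBP proteins, for the cAMP response element TGACGTCA, bound by CREB and ATF family dimers, and for the ER stress response element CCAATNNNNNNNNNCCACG, bound by ATF6 with NF-Y. No matches overlapped. The sites below, on the strand of the gene with the motif in capitals, are those of the genes that the results turn on and of contrasting genes with the same element; motifs on the other strand read as the reverse complement.

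Ppp1r15a, cAMP response element, chr7:45526269-45526285, minus strand: tccggTGACGTCAgcac
Nupr1, C/EBP-ATF element, chr7:126625568-126625585, minus strand: ccagaTTGCATCAgacag
Asns, C/EBP-ATF element, chr6:7693220-7693237, minus strand: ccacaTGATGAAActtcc
Chac1, C/EBP-ATF element, chr2:119351044-119351061, plus strand: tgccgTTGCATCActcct
Hspa5, ER stress element, chr2:34772020-34772048, plus strand: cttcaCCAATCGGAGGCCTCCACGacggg
Dnajc3, ER stress element, chr14:118937822-118937850, plus strand: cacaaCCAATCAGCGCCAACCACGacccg
Calr, ER stress element, chr8:84847070-84847098, minus strand: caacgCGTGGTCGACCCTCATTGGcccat

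The C/EBP-ATF element was found before 5 genes (Aars, Asns, Chac1, Herpud1 and Nupr1), that is 12.2% of the 41, and in 3.45% of 32851 promoters of the same length. The cAMP response element was found before Ppp1r15a alone, at 12 to 5 bases before the start, and in 1.55% of all promoters. The ER stress element was found before 8 genes (Calr, Canx, Creld2, Dnajc3, Hsp90b1, Hspa5, Pdia6 and Syvn1), 19.5% of the 41, and in 0.113% of all promoters. The list was drawn up from known members of these pathways, so a higher share is a property of the choice.

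In lamin A/C knockdown E0771 cells 6 of the 43 tested genes fell and none rose. The 6 were 14% of the tested genes on the list, beside 13.7% of the 8969 genes tested in all. Ppp1r15a, Ddit3, Trib3 and Nupr1, all regulators downstream of ATF4, fell 3.08-fold, 2.25-fold, 1.90-fold and 1.6-fold. Edem2, of ER-associated degradation, and Slc3a2, an amino acid transporter subunit, fell 1.53-fold and 1.48-fold. None of the 12 tested chaperones and folding enzymes passed the test, and neither did Atf4, Atf6, Xbp1 or the sensor kinases tested. Of the 12 tested stress and amino acid genes 11 did not pass either, among them Asns, Chac1, Mthfd2, Phgdh, Psat1 and Slc7a5.

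By direction the tested genes on the list had 14% lower beside 5.78% of all genes, and 0% higher beside 7.96% of all genes. DESeq2 and limma-voom called the same 6 lower and none higher. In bulk libraries, fewer cells with a transcript and less of it per cell cannot be told apart. At an unadjusted p below 0.05 there were 11 genes, 2 of them with higher estimates, Xbp1 and Pdia4, and 28.4% of all genes. By the criteria of the study, which also ask for a mean normalized count above 5 and an absolute Log2FoldChange above 1, Ppp1r15a and Ddit3 were lower and no gene was higher, beside 1.74% lower and 3.97% higher (5.71% together) of all genes. The median Log2FoldChange was -0.03 over the 43 genes and 0.00326 over all genes. By role it was -0.11 over the sensors and factors, 0.13 over the folding genes, 0.15 over the degradation genes and -0.10 over the stress and amino acid genes. In that order the median GC content of the counted ends was 52.2%, 43.5%, 45% and 52.05%, beside 47.1% over all genes. Differences between the roles were not tested. The values of the groups did not overlap for 12 genes, 10 lower and 2 higher in shLmna, beside 15.7% lower and 16.8% higher (32.5% together) of all genes. The plot of Log2FoldChange by role shows these estimates side by side.

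**Figure D1:**
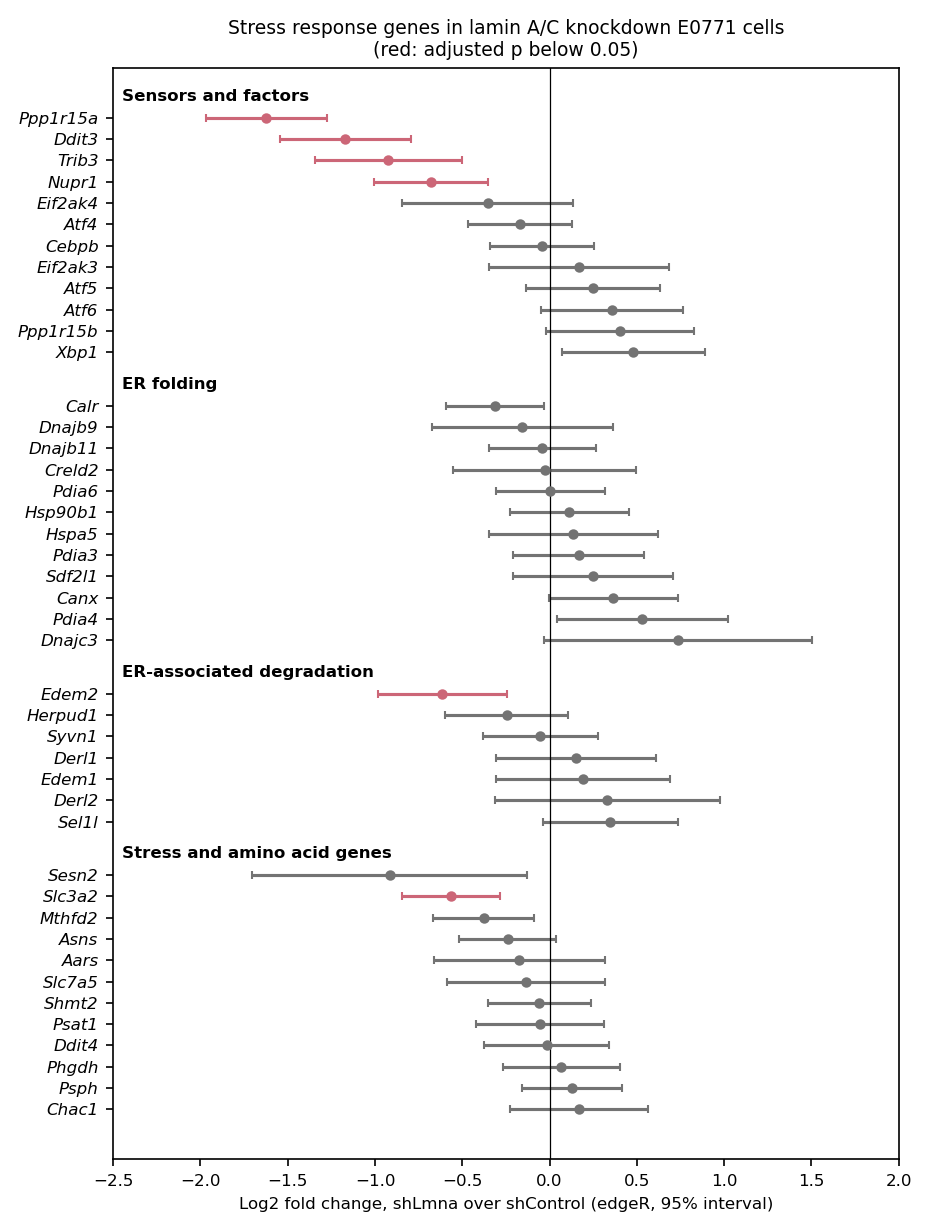
Log2FoldChange of shLmna over shControl (points) with its 95% interval from edgeR (bars) for the 43 tested genes, grouped by role, with genes at an adjusted p below 0.05 in red. The 6 red genes lie between -1.62 and -0.56, and 4 of them, Ppp1r15a, Ddit3, Trib3 and Nupr1, are sensors and factors.

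Ppp1r15a encodes GADD34, the stress-induced subunit that brings protein phosphatase 1 to eIF2α and so restores translation. It lies on chromosome 7 from 45522916 to 45526268 on the minus strand (GRCm38, GENCODE M21). In shControl it stood at 184, 145 and 148 CPM, and in shLmna at 58.1, 47.7 and 48.9 CPM. Each shLmna library lay far below each shControl library, and the spread within a group was small beside the gap. Its Log2FoldChange was -1.62 (SE 0.16, 95% interval -1.97 to -1.28, adjusted p = 1.77e-05), the lowest of the 43. The counted end overlaps Tulp2 on the opposite strand, and whether counting used the strand is not given in the sources used here; Tulp2 itself had 12.2 to 17.6 CPM and a Log2FoldChange of -0.38 (adjusted p = 0.296).

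Ppp1r15b encodes the constitutive counterpart of GADD34, which directs the same phosphatase in unstressed cells. Its level was 41.6, 53.5 and 73.7 CPM in shControl and 63.7, 78.6 and 79.2 CPM in shLmna. The groups overlapped, since shControl replicate 3 stood above shLmna replicate 1. Its Log2FoldChange was 0.40 (SE 0.20, 95% interval -0.02 to 0.83, adjusted p = 0.202). Without shControl replicate 3, which carried melanocyte transcripts, it was 0.62 (adjusted p = 0.0277), and without both libraries with those transcripts it was 0.58 (adjusted p = 0.0687).

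The UMI ratio of Ppp1r15a to Ppp1r15b within each library was computed as a description of the mRNAs of both phosphatase subunits. UMIs count a molecule once whatever its length. Capture of the counted ends may still differ between the genes (GC content 55.6% for Ppp1r15a and 41% for Ppp1r15b), so the ratio compares libraries and not absolute amounts. The ratio was 4.43, 2.71 and 2.01 in shControl and 0.912, 0.607 and 0.617 in shLmna. In shControl the inducible subunit had more UMIs than the constitutive one in all 3 libraries, and in shLmna it had fewer in all 3. The 2-sided exact permutation p was 0.1, which is the smallest that 3 against 3 samples allow, and this pair, like the other gene pairs compared below, was chosen after the values were seen.

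Ddit3 encodes CHOP, a C/EBP family factor induced through ATF4 and linked to cell death under prolonged stress. It was measured at 169, 178 and 119 CPM in shControl and at 77.2, 70.5 and 59.6 CPM in shLmna. The groups did not overlap, and the lowest shControl library was replicate 3, with melanocyte transcripts. Its Log2FoldChange was -1.17 (SE 0.18, adjusted p = 0.000542), and -1.33 (adjusted p = 3.28e-05) without both libraries with melanocyte transcripts. Ddit3, on chromosome 10 from 127290774 to 127296288, shares its counted end with Mars and Gm4189 on the opposite strand. On the same strand it overlaps another annotated entry that is also named Ddit3. Mars, a methionine tRNA synthetase gene now named Mars1, had a Log2FoldChange of -0.16 (adjusted p = 0.452).

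Trib3, a pseudokinase that binds AKT and ATF4 and is itself an ATF4 and CHOP target, was measured at 77.7, 61.9 and 86.5 CPM in shControl. In shLmna it stood at 30.0, 43.0 and 46.3 CPM. The groups did not overlap, and shControl replicate 2 and shLmna replicate 3 were the closest. Its Log2FoldChange was -0.92 (SE 0.20, adjusted p = 0.00654). It lies on chromosome 2 from 152337422 to 152344032, and no other annotated gene overlaps its counted end.

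Nupr1, a small stress-induced chromatin protein with the C/EBP-ATF element printed above, was measured at 129, 118 and 114 CPM in shControl and at 86.6, 70.9 and 68.1 CPM in shLmna. The replicates lay close together and the groups did not overlap. Its Log2FoldChange was -0.68 (SE 0.15, adjusted p = 0.00914). The adjusted p was 0.0559 when shLmna replicate 3 was left out. The gene lies on chromosome 7 from 126623249 to 126630861 (GENCODE M21). The printed element falls within that span, because promoters were placed from RefSeq starts, here at 110 to 103 bases before the start.

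**Figure D2:**
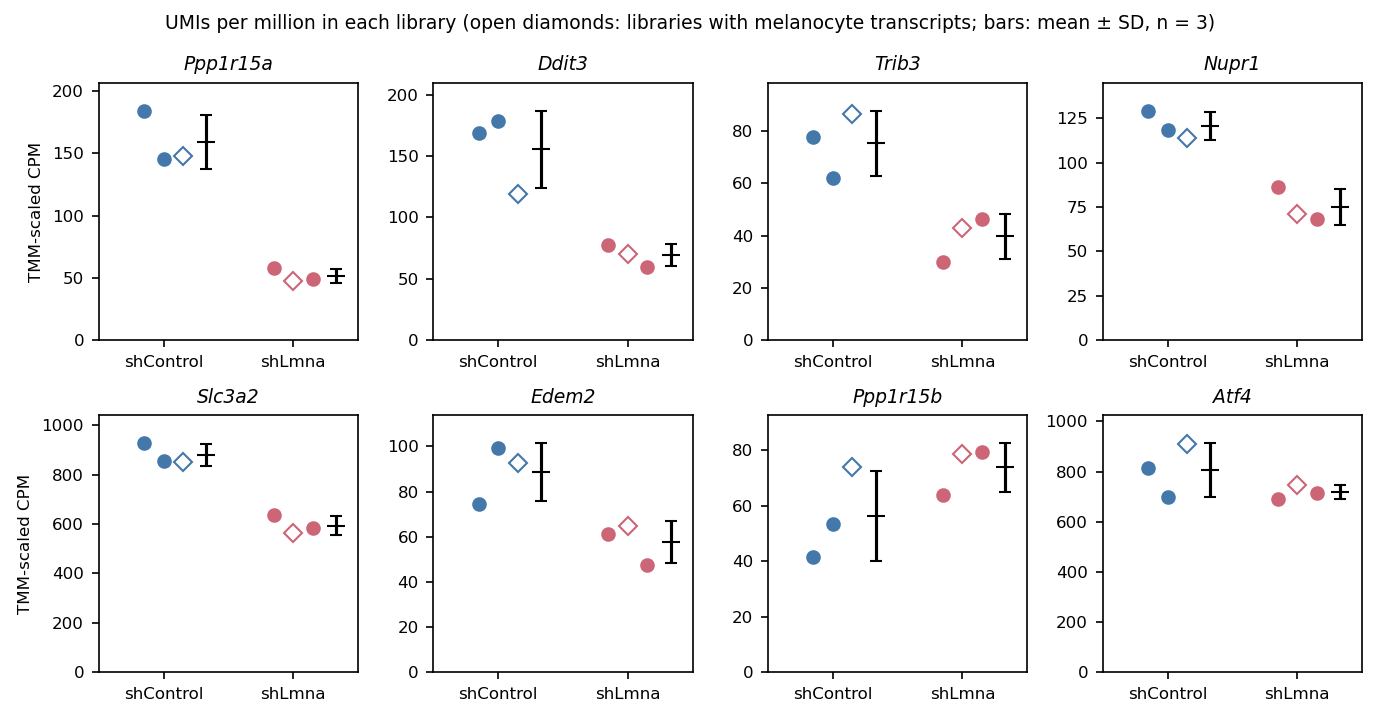
TMM-scaled CPM of 8 genes in each library (circles, and open diamonds for the 2 libraries with melanocyte transcripts), with the mean ± SD of each group (bars, n = 3). Ppp1r15a lies at 145 to 184 CPM in shControl and 47.7 to 58.1 CPM in shLmna, and the groups overlap only in the panels of Ppp1r15b and Atf4.

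Atf4 encodes the factor through which eIF2α phosphorylation reaches many of these genes. The 3 shControl libraries had 814, 697 and 911 CPM and the 3 shLmna libraries 691, 746 and 716 CPM. The groups overlapped, with shControl replicate 2 among the shLmna values. Its Log2FoldChange was -0.17 (SE 0.14, 95% interval -0.47 to 0.13, adjusted p = 0.462). ATF4 is controlled mainly by translation, which mRNA counts do not show.

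The UMI ratio of Ddit3 to Atf4 was 0.207, 0.256 and 0.131 in shControl and 0.112, 0.0944 and 0.0832 in shLmna. That of Trib3 to Atf4 was 0.0954, 0.0888 and 0.0949 in shControl and 0.0434, 0.0576 and 0.0646 in shLmna. For both pairs every shLmna library lay below every shControl library, and the exact permutation p was 0.1 for each, the smallest possible here. That of Nupr1 to Atf4 was 0.159, 0.170 and 0.125 in shControl and 0.125, 0.0949 and 0.0951 in shLmna, with shLmna replicate 1 just above the lowest shControl library (exact permutation p = 0.2). That of Asns to Atf4 was 0.787, 0.798 and 0.655 in shControl and 0.722, 0.687 and 0.709 in shLmna, and these groups overlapped (exact permutation p = 0.4). Adjusted by Benjamini-Hochberg over the 6 ratios computed, the smallest exact permutation p was 0.2.

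**Figure D3:**
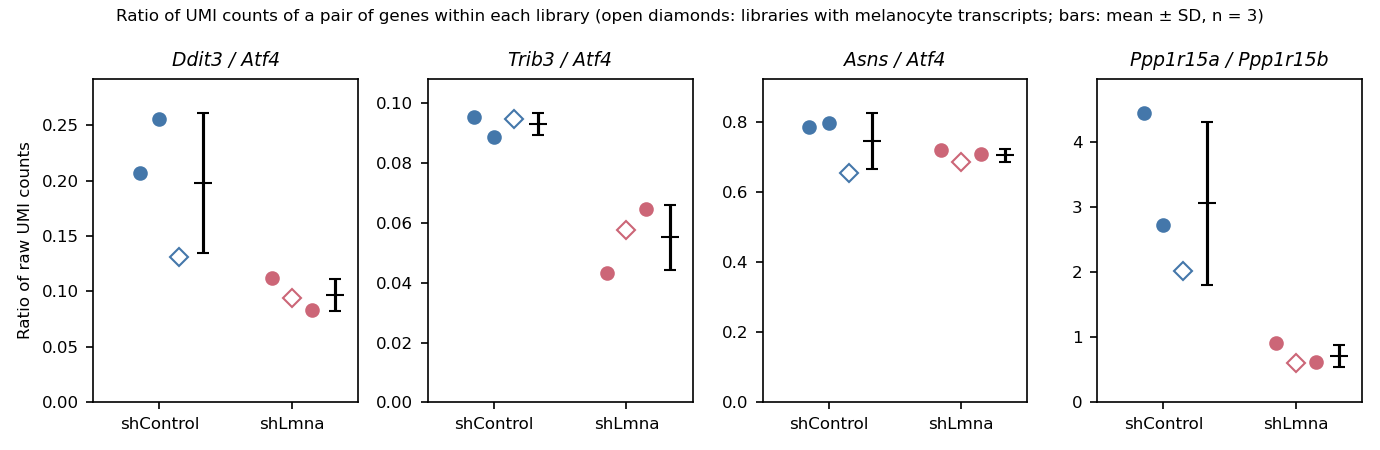
Ratio of the raw UMI counts of gene pairs within each library (circles, and open diamonds for the 2 libraries with melanocyte transcripts), with the mean ± SD of each group (bars, n = 3). The ratio of Ppp1r15a to Ppp1r15b is above 2 in the shControl libraries and below 1 in the shLmna libraries, while the groups overlap for Asns to Atf4.

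Eif2ak3, which encodes PERK, was measured at 12.9, 16.6 and 18.6 CPM in shControl and 14.2, 18.7 and 21.3 CPM in shLmna, with a Log2FoldChange of 0.17 (SE 0.24, adjusted p = 0.697). Eif2ak4, which encodes GCN2, was measured at 18.8, 22.2 and 17.5 CPM in shControl and 15.4, 18 and 12.2 CPM in shLmna, with a Log2FoldChange of -0.36 (SE 0.23, adjusted p = 0.340). Both kinases overlapped between the groups. Ern1, which encodes IRE1, had 13, 13 and 5 UMIs in shControl and 5, 3 and 5 UMIs in shLmna and was not tested.

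Atf6 encodes a membrane-bound factor that is cut free under ER stress. Its level was 26.3, 30.0 and 29.7 CPM in shControl and 39.0, 40.0 and 30.3 CPM in shLmna. The groups touched without overlapping, and the Log2FoldChange was 0.36 (SE 0.19, adjusted p = 0.244). Xbp1, the target of IRE1, was measured at 60.4, 67.2 and 76.4 CPM in shControl and at 77.6, 124 and 80.8 CPM in shLmna. The groups did not overlap but lay next to each other, the highest value was in shLmna replicate 2, with melanocyte transcripts, and the Log2FoldChange was 0.48 (SE 0.19, adjusted p = 0.113), or 0.31 (adjusted p = 0.303) without the libraries with those transcripts.

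Atf5, an ATF4-related factor controlled by translation, was measured at 39.2, 35.0 and 33.4 CPM in shControl and at 43.8, 47.0 and 36.7 CPM in shLmna, with a Log2FoldChange of 0.25 (SE 0.18, adjusted p = 0.393). Cebpb, a dimer partner of CHOP and ATF4, was measured at 129, 114 and 129 CPM in shControl and at 120.3, 122 and 118 CPM in shLmna, with a Log2FoldChange of -0.05 (95% interval -0.34 to 0.25, adjusted p = 0.873). Both overlapped between the groups. Cebpg, another partner, had 3 to 10 UMIs a library and was not tested.

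The ER folding genes, which take in chaperones, their cofactors and disulphide isomerases, included 12 tested genes, 8 with higher and 4 with lower estimates and none past the test; Calr and Pdia4 had an unadjusted p below 0.05. Hspa5 encodes BiP, the ER chaperone that holds the sensors inactive. It was measured at 189, 255 and 392 CPM in shControl and at 237, 374 and 304 CPM in shLmna. The highest library of each group was the one with melanocyte transcripts, and the groups overlapped over most of their range. Its Log2FoldChange was 0.14 (SE 0.23, 95% interval -0.35 to 0.62, adjusted p = 0.742). The estimate was -0.093 without shControl replicate 1 and -0.037 without shLmna replicate 2, and it was 0.28 (adjusted p = 0.340) without both libraries with melanocyte transcripts. The counted end of Hspa5 overlaps Rabepk on the opposite strand, which had a Log2FoldChange of -0.25 (adjusted p = 0.361); Cebpb, Hsp90b1, Pdia6, Shmt2 and Syvn1 also share their counted ends with other annotated genes.

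Dnajc3 encodes p58IPK, an inhibitor of PERK and a cochaperone of BiP. It was measured at 5.49, 7.50 and 18 CPM in shControl and at 12.7, 18 and 18.6 CPM in shLmna. In shControl replicate 3, with melanocyte transcripts, it stood with the shLmna libraries, while the other 2 shControl libraries lay below all of shLmna. Its Log2FoldChange was 0.74 (SE 0.36, adjusted p = 0.195) with all libraries, 1.22 (SE 0.35, adjusted p = 0.0231) without both libraries with melanocyte transcripts, and 1.30 (adjusted p = 0.00734) without shControl replicate 3 alone. The part of the melanocyte transcripts in this difference was not tested.

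Pdia4, a disulphide isomerase, was measured at 52.2, 44.4 and 26.5 CPM in shControl and at 62.6, 46.6 and 72.3 CPM in shLmna. Its lowest value in each group was in the library with melanocyte transcripts, and its Log2FoldChange was 0.53 (SE 0.23, adjusted p = 0.142). Canx, the membrane-bound lectin chaperone calnexin, was measured at 81.6, 107 and 77.5 CPM in shControl and at 96.7, 114 and 135 CPM in shLmna, with a Log2FoldChange of 0.37 (adjusted p = 0.183). Calr, its soluble counterpart calreticulin and the most abundant gene on the list, was measured at 2515, 2920 and 2837 CPM in shControl and at 2264, 2121 and 2273 CPM in shLmna. All 3 shLmna libraries lay below shControl for Calr, and its Log2FoldChange of -0.31 (SE 0.13, adjusted p = 0.132) did not pass the test. The rest of the group, Hsp90b1, Dnajb9, Dnajb11, Sdf2l1, Creld2, Pdia3 and Pdia6, had estimates from -0.16 to 0.25. Dnajb9, a cochaperone of BiP, had -0.16 (adjusted p = 0.723) in this fit but -0.73 (adjusted p = 0.0399) with an offset for the GC content of the counted ends. Hyou1 had 4 to 21 UMIs a library and was not tested.

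**Figure D4:**
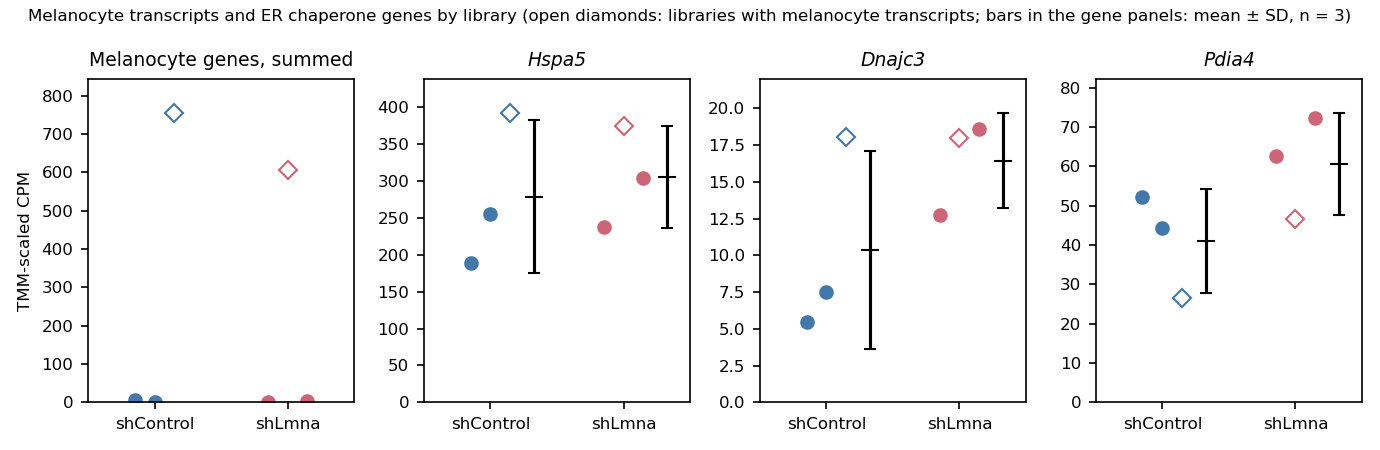
TMM-scaled CPM of the 6 melanocyte markers in the table, summed, and of Hspa5, Dnajc3 and Pdia4 in each library (circles, and open diamonds for the 2 libraries with melanocyte transcripts), with the mean ± SD (bars, n = 3) in the gene panels. The diamonds stand at 754 and 605 CPM in the first panel, at the top of each group for Hspa5, and at the bottom of each group for Pdia4.

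The libraries with melanocyte transcripts were the highest of both groups for 10 of the 43 genes (23.3%) and the lowest of both for 7 (16.3%), beside 19.1% and 18.3% of all tested genes. By role they were the highest of both for 5 of the 12 folding genes, 3 of the 12 sensors and factors, 1 of the 7 degradation genes and 1 of the 12 stress and amino acid genes. They were the lowest of both for 1, 0, 1 and 5 genes of those groups, and differences between the role groups were not tested. Genes of a pathway vary together, so these are counts and not independent observations. Without both libraries the same 6 genes fell, with Log2FoldChange from -1.61 for Ppp1r15a to -0.55 for Slc3a2, and Dnajc3 rose. Over the 43 genes the estimates with and without those libraries differed by a median of 0.06 and at most by 0.49, and 4 genes changed sign.

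**Figure D5:**
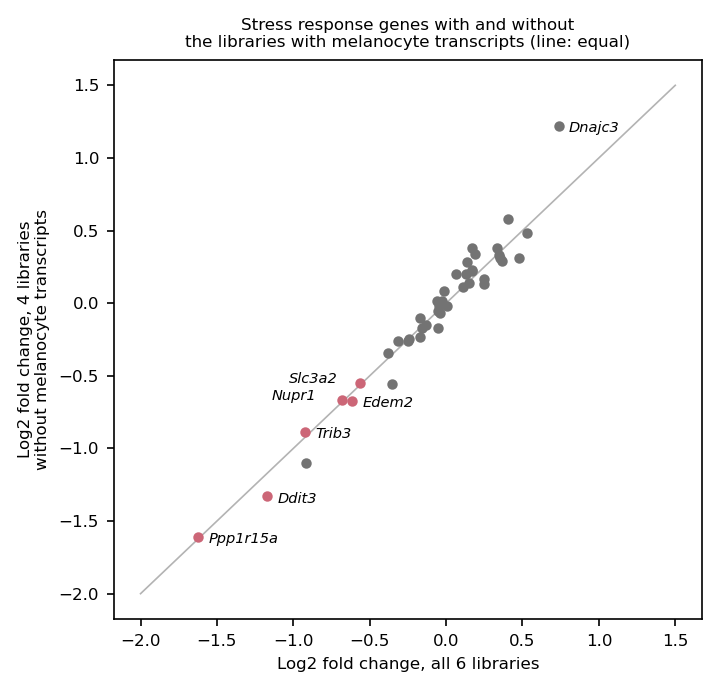
Log2FoldChange of shLmna over shControl of the 43 tested genes (points) in all 6 libraries (horizontal axis) and in the 4 without melanocyte transcripts (vertical axis), with the line of equal values and the 6 genes with an adjusted p below 0.05 in all libraries in red. The red points lie close to the line, and Dnajc3 lies farthest from it, at 0.74 and 1.22.

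The 8 genes with the ER stress element had a median Log2FoldChange of 0.06, from -0.31 for Calr to 0.74 for Dnajc3, and none passed the test; Calr alone had an unadjusted p below 0.05. Of the 5 genes with the C/EBP-ATF element, Nupr1 passed the test, and the others ranged from -0.25 for Herpud1 to 0.17 for Chac1. For Ddit3, Trib3, Slc3a2 and Edem2 no match to the searched letters was found. Sites farther than 250 bases from the start were not searched, and the 5 genes without a promoter are not named here.

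Of the 7 tested genes of ER-associated degradation, which carries misfolded proteins to the cytosol and the proteasome, Edem2 fell. Edem2 encodes an ER mannosidase that starts the trimming of N-glycans on misfolded glycoproteins. It was measured at 74.5, 99.1 and 92.8 CPM in shControl and at 61.1, 64.6 and 47.3 CPM in shLmna. The groups did not overlap, with shControl replicate 1 the closest to shLmna. Its Log2FoldChange was -0.61 (SE 0.17, adjusted p = 0.0287). This was the least firm of the 6 calls, with an adjusted p of 0.16 without shControl replicate 2, 0.0667 without shLmna replicate 1 and 0.141 without shLmna replicate 3. It lies on chromosome 2 from 155701677 to 155729475.

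The other 6 degradation genes did not pass the test. Sel1l and Syvn1, the scaffold and the ubiquitin ligase HRD1 of the retrotranslocation complex, had Log2FoldChange of 0.35 (adjusted p = 0.227) and -0.05 (adjusted p = 0.864). Herpud1, which joins that complex and is an ATF4 and ATF6 target, had -0.25 (adjusted p = 0.358). Edem1, Derl1 and Derl2 had 0.19, 0.15 and 0.33.

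Of the 12 stress and amino acid genes Slc3a2 fell. It encodes 4F2hc, the heavy chain shared by several amino acid exchangers, among them the leucine transporter formed with Slc7a5. It was measured at 928, 856 and 849 CPM in shControl and at 635, 562 and 583 CPM in shLmna. The replicates of each group lay within a narrow range and the groups were well apart. Its Log2FoldChange was -0.56 (SE 0.13, adjusted p = 0.0105), and the gene lies on chromosome 19 from 8706882 to 8723369.

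Slc7a5, the light chain LAT1, was measured at 317, 252 and 203 CPM in shControl and at 325, 194 and 184 CPM in shLmna, with a Log2FoldChange of -0.13 (SE 0.21, 95% interval -0.59 to 0.32, adjusted p = 0.727). The UMI ratio of Slc3a2 to Slc7a5 was 2.93, 3.40 and 4.18 in shControl and 1.96, 2.9 and 3.17 in shLmna, and the groups overlapped (exact permutation p = 0.2).

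Mthfd2, a mitochondrial enzyme of one-carbon metabolism, was measured at 293, 257 and 278 CPM in shControl and at 231, 204 and 202 CPM in shLmna. The groups did not overlap, and its Log2FoldChange of -0.38 (SE 0.14) had an adjusted p of 0.0802, the smallest among the 37 genes that did not pass. Sesn2, a leucine sensor that restrains mTORC1, was measured at 5.49, 11.3 and 6.90 CPM in shControl and at 3.75, 4.77 and 4.25 CPM in shLmna. It rested on 8 to 36 UMIs a library, and its Log2FoldChange of -0.92 (SE 0.37) had an adjusted p of 0.115.

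The serine synthesis enzymes Phgdh, Psat1 and Psph had Log2FoldChange of 0.07, -0.05 and 0.13, and Shmt2, which makes glycine from serine, had -0.06. Asns, the asparagine synthetase with a C/EBP-ATF element, was measured at 641, 557 and 597 CPM in shControl and at 499, 513 and 507 CPM in shLmna. Its groups did not overlap, but its Log2FoldChange of -0.24 (SE 0.13, adjusted p = 0.245) did not pass the test. Aars, Ddit4 and Chac1 had -0.17, -0.02 and 0.17; Aars, the alanine tRNA synthetase, shares its counted end with Exosc6 on the same strand and is uncertain. Over the 37 genes that did not pass, 17 estimates were lower and 20 higher, from -0.92 to 0.74.

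Other genes of these pathways were taken from 6 lists written by role, of which the table held 144 of 165 and 135 were tested. In these lists 11 genes fell and 7 rose, 8.15% and 5.19%, beside 5.78% and 7.96% of all genes. By list, 17.4% of the sensor and eIF2 genes, 21.1% of the tRNA synthetase list (with Xpot) and 11.1% of the other ATF4 targets were called in either direction. The other folding, ER entry and other degradation genes had 13.6%, 7.14% and 12%, beside 13.7% of all genes. The median Log2FoldChange of the 135 was -0.07, beside 0.00326 over all genes. Of the 18 genes called, Atf3, Mbtps2, Kars, Sqstm1, Ero1l and Mogs kept an adjusted p below 0.05 whichever library was left out, and the other 12 lost it without at least 1 library, with values up to 0.269 (Lars without shControl replicate 2).

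Among 23 tested genes of other sensors and of eIF2 control, Atf3 and, less firmly, Eif2b4 and Bbc3 fell and Mbtps2 rose. Atf3, a stress-induced factor downstream of ATF4, was measured at 91.0, 89.7 and 81.2 CPM in shControl and at 30.7, 20.9 and 28.7 CPM in shLmna. The groups were well apart, and the Log2FoldChange of -1.71 (SE 0.18, adjusted p = 2.85e-05) was close to that of Ppp1r15a. Eif2b4, a subunit of the exchange factor that eIF2α phosphorylation inhibits, had -0.73 (adjusted p = 0.0112). Its adjusted p by edgeR was 0.074 without shControl replicate 2 and 0.0577 without shLmna replicate 2. Bbc3, the proapoptotic protein PUMA, had -0.61 (adjusted p = 0.041). The Bbc3 call was lost by DESeq2 (adjusted p = 0.103) and without both libraries with melanocyte transcripts (adjusted p = 0.0961 by edgeR). Mbtps2, the protease that releases ATF6, had 0, 2 and 2 UMIs in shControl and 46, 32 and 30 in shLmna, at least 12.1-fold higher against a floor of 3 UMIs per library.

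Among 19 tested genes of the tRNA synthetase list, which also holds the tRNA exporter Xpot, 4 fell, Kars, Rars, Tars and Lars. Kars was measured at 1226, 1066 and 910.4 CPM in shControl and at 741, 530 and 627 CPM in shLmna, with a Log2FoldChange of -0.76 (SE 0.16). Rars had -0.76, Tars -0.53 and Lars -0.57, the last at an adjusted p of 0.0485. The median of the 19 was -0.34, beside 0.00326 over all genes. Among 18 tested genes of other ATF4 targets Sqstm1 and Gadd45a fell. Sqstm1, the autophagy receptor p62, was measured at 1419, 1296 and 1182 CPM in shControl and at 707, 605 and 612 CPM in shLmna, with a Log2FoldChange of -1.02 (SE 0.14, adjusted p = 0.000237). Gadd45a, a growth arrest gene, had -0.62 (adjusted p = 0.034), and this call was lost by DESeq2 (adjusted p = 0.0508), without both libraries with melanocyte transcripts (adjusted p = 0.0679 by edgeR) and when any 1 library was left out.

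Among 22 other ER folding genes Ero1l, Txndc5 and Mogs rose, with a median of 0.12. Ero1l, the oxidase that supplies disulphide isomerases, had 0, 2 and 5 UMIs in shControl and 23, 28 and 30 in shLmna, a Log2FoldChange of 3.54 (SE 0.59, adjusted p = 0.00114). Mogs, the glucosidase that starts trimming of new N-glycans, was measured at 93.7, 102 and 93.9 CPM in shControl and at 144, 149.8 and 162 CPM in shLmna, with a Log2FoldChange of 0.65 (SE 0.14), and Txndc5, a disulphide isomerase, had 0.75. Among 28 genes of entry into the ER Srpr, the receptor of the signal recognition particle, fell by 0.58 on the log2 scale and Srp72, a subunit of that particle, rose by 1.13. Among 25 other degradation genes Ube2g2, a ubiquitin-conjugating enzyme, fell by 0.63 on the log2 scale. March6, a ubiquitin ligase of the ER membrane, and Dnajb14, an ER cochaperone, had Log2FoldChange of 1.03 (adjusted p = 0.0454) and 0.79 (adjusted p = 0.0475). Both of these calls were lost by DESeq2 (adjusted p = 0.154 and 0.108) and, by edgeR, without both libraries with melanocyte transcripts (adjusted p = 0.203 and 0.12). They were also lost by edgeR with the GC offset (adjusted p = 0.0582 and 0.109).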

How the data were processed

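Per the labels and the methods of the study, the authors trimmed MARS-seq reads with Cutadapt, aligned them to mm10 with STAR 2.4.2a and used HTSeq to count UMIs in a window at the 3' end of RefSeq genes (1000 bases before the end and 100 after it). The deposited values are whole-number counts without normalization, of genes that reach at least 6 UMIs in some library. The authors also deposited ComBat-corrected log2 values and a DESeq2 comparison (means, fold changes and p-values), both not used here. From the counts, edgeR 4.0.16 (R 4.3.3) was run with TMM scaling, filterByExpr at a minimum count of 10 and the quasi-likelihood test of 3 shLmna against 3 shControl libraries, with Benjamini-Hochberg adjustment over 8969 genes and a threshold of 0.05. The step was tested on simulated data with 200 changed genes. Members, lists and markers were chosen with earlier results of these data known. Named were the main sensors and factors with Hspa5, every gene past the threshold, the next 3 in each direction by unadjusted p and up to 3 in each direction per other list; Lars, Dnajb9 and genes given by ranges were added after their values were seen. Positions came from GENCODE M21 (10467 of 10520 genes matched). The 16 alternatives planned included DESeq2 1.42.0, limma 3.58.1 with voom, other scaling, filters and a GC offset; 2 that concern the libraries with melanocyte transcripts were chosen after seeing the data. Pairs of replicates differed beyond sampling noise (chi-square per degree of freedom 5.11 to 8.28).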

Additional observations from a re-analysis of the deposited data

How the results depend on the processing

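The 6 genes that fell (Ppp1r15a, Ddit3, Trib3, Nupr1, Edem2 and Slc3a2) passed the test also by DESeq2 and voom, under both other scalings, both other filters and the GC offset, and without both libraries with melanocyte transcripts; the GC offset added Dnajb9 as lower, and thinning to the smallest library lost Edem2. Leaving out 1 library at a time gave 4 to 6 lower and 0 to 2 higher, and by the criteria of the study 2 to 3 lower and 0 to 1 higher: Edem2 was lost without shControl replicate 2, shLmna replicate 1 or shLmna replicate 3, Nupr1 without shLmna replicate 3, and Dnajc3 and Ppp1r15b were added without shControl replicate 3. Without both libraries with melanocyte transcripts 1 gene, Dnajc3, was higher, also by the criteria of the study, and with a term for those libraries 2 were higher, Pdia4 and Xbp1, and Mthfd2 joined the lower genes. The Log2FoldChange of Hspa5 ranged from -0.093 (without shControl replicate 1) to 0.45 (without shControl replicate 3) and was -0.037 without shLmna replicate 2. The median of the folding genes ranged from -0.039 to 0.22 when 1 library was left out. In the other pathway lists 4 to 16 genes fell and 4 to 10 rose when 1 library was left out. Over all tested genes 2.04% to 7.61% were then lower, and 5.89% to 17.2% were called in either direction. With the GC offset 17 fell, beside 8.64% of all genes. With the term 27 fell and 11 rose, beside 9.34% lower and 20.8% called in either direction of all genes. With a mean count of at least 50, 3 rose, beside 425 of all 5846 genes tested. March6, Dnajb14, Bbc3 and Gadd45a lost their calls by DESeq2 and without both libraries with melanocyte transcripts, with adjusted p over all alternatives up to 0.203, 0.174, 0.171 and 0.136. March6 and Dnajb14 also lost theirs with the GC offset. The cause was not tested in any of these cases. Same-numbered libraries had correlations of their deviations of 0.35, -0.11 and 0.0052. That of shControl replicate 3 with shLmna replicate 2, which both carried melanocyte transcripts, was also 0.35. These values cannot decide whether the numbers pair the libraries, since a differently numbered pair was about as high. The replicate block left the 6 calls and gave 19 lower genes in the other lists, beside 6.43% lower of all genes. Together with the GC offset it also gave 19, beside 8.17%. Genes with a few UMIs per library, such as Ern1, Hyou1 and Sesn2, were limited by depth.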
